A study of Drosophila melanogaster with 4 samples.

Results

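The 9 genes described here are the LIM-homeodomain genes ap, Lim1, Lim3, tup, Awh and CG4328 and the POU-domain genes acj6, pdm3 and vvl of Drosophila melanogaster. They were taken as members of these transcription factor families and are not the whole of either. The choice was made with earlier results of these data known, so their counts are descriptions and not independent support. They were looked up by exact symbol in the gene name and symbol columns of the authors' deposited table of genes with Prospero binding peaks. That table names 1510 unique gene identifiers. Of the 9 genes, 6 were in the table. The 4 LIM-homeodomain genes among them were ap (FBgn0267978), Lim1 (FBgn0026411), Lim3 (FBgn0002023) and CG4328 (FBgn0036274), and the 2 POU genes were acj6 (FBgn0000028) and pdm3 (FBgn0261588). The LIM-homeodomain genes tup and Awh and the POU gene vvl were not among the entries analysed here.

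Targeted DamID, in which a bacterial adenine methylase (Dam) fused to a chromatin protein marks GATC sites near the places where that protein sits, was applied to dissected brains of 3rd instar larvae. Dam alone, Dam-Pros-FL (full-length Prospero), Dam-Pros-ΔN7 and Dam-HP1a were each expressed under GMR71C09-GAL4 with Gal80ts, so all 4 groups share the same driver and temperature-sensitive repressor, and the design text gives 3 biological replicates for each. By the title of the series, the cells are precursors and neurons of the central brain. The table analysed holds names only, with no peak height, position or replicate value, so depth is unknown, no spread between replicates could be computed, and the sources used here do not name the Prospero form behind it. For the same reason the labelled cell types could not be checked against expressed markers.

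LIM-homeodomain proteins carry a pair of LIM zinc-binding domains in front of a homeodomain. The LIM domains recruit cofactors, and combinations of LIM-homeodomain proteins in one nucleus are known to specify neuron types, such as classes of motor neurons. POU proteins bind DNA through a POU-specific domain and a linked homeodomain, and several act in postmitotic neurons, where they control axon targeting and the choice of transmitter or receptor genes. Prospero, itself an atypical homeodomain protein, enters the daughters of neuroblasts and is needed for them to stop dividing and differentiate.

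Among the 6 LIM-homeodomain genes, 4 were in the authors' deposited table (66.7%). The chromosome arms carry 13946 protein-coding genes, of which 1082 were in it, a background of 7.76% (exact Clopper-Pearson 95% interval 7.32 to 8.21, covering counting error only). ap encodes Apterous, the dorsal selector of the wing disc, which also specifies a set of peptidergic neurons. Lim1 acts in head and leg development and in subsets of neurons of the brain and nerve cord. Lim3 is a motor neuron factor that, in ventral motor neurons, is expressed together with the Islet protein encoded by tup. CG4328 is one of a pair of fly genes of the LMX type. Each of these 4 genes had exactly 1 gene entry, with the same name in both columns, and no transcript entry.

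The LIM-homeodomain genes not in the table were tup and Awh. tup encodes the fly Islet, known for roles in ventral motor neurons, in serotonergic and dopaminergic neurons and in the heart. Awh (Arrowhead) is known from the precursors of abdominal and salivary gland imaginal tissue. Lim3 and tup lie on the same arm, 2L, and act together in motor neurons, and of the pair only Lim3 was listed.

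Of the 3 POU genes, acj6 and pdm3 were in the table and vvl was not (66.7%), the same share as in the LIM class. acj6 is known for odorant receptor choice in olfactory neurons and for the wiring of projection neurons of the antennal lobe. pdm3 acts in olfactory neurons and in the targeting of ellipsoid body ring neuron axons. vvl (ventral veins lacking, also drifter) acts in tracheal cells, in wing veins and in projection neurons of a lateral lineage, where it stands in place of acj6. No test was made over so few chosen genes.

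The 9 genes are not the whole of either family, so the remaining members were looked up as well. The fly's other LIM-homeodomain gene is CG32105 (FBgn0052105), which was in the table under that gene name with the symbol Lmx1a. With it, 5 of 7 LIM-homeodomain genes were listed (71.4%). The other POU genes, the paralogues nub and pdm2, which together mark the Pdm stage of the temporal identity programme of embryonic neuroblasts, were not in the table. With these, 2 of 5 POU genes were listed (40%). The equal shares of the 9 genes thus became 71.4% against 40% over the full families, a difference made by 3 genes and not tested.

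Both families are made mostly of long genes, and over all protein-coding genes the long ones were listed more often. The genomic span of a gene, taken from the Release 6 plus ISO1 MT annotation, was used to rank all protein-coding genes into 10 equal groups. In the longest group, 26.2% of genes were in the table, against 12.5% in the 9th and 6.81% in the 8th. The 6 LIM-homeodomain genes had a median span of 21539.5 bp and the 3 POU genes one of 28826 bp, while the median of all protein-coding genes was 2161 bp. If each gene were listed at the rate of its span group, 1.38 of the 6 LIM-homeodomain genes and 0.593 of the 3 POU genes would be in the table. The counts seen were 4 and 2. Over the whole families the corresponding figures were 1.51 of 7 and 1.12 of 5, beside 5 and 2 seen.

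The median span was 28999 bp for the 6 listed of the 9 genes and 15487 bp for the 3 others. Over the whole families it was 28826 bp for the 7 listed genes and 21755 bp for the 5 others. Listed genes were thus longer by the median, but span did not strictly separate them from the others. The longest was pdm3 at 68791 bp, followed by Lim1 at 49266 bp, and both were in the table. Next came nub at 40511 bp, which was not. Lim3 (29172 bp) and acj6 (28826 bp) were listed, whereas pdm2, with 29142 bp between them, was not. tup (21755 bp) and ap (21324 bp) differ little in span, and of this pair only ap was listed. At the short end, CG4328 spans 5168 bp and was listed, and vvl spans 4784 bp and was not. In the longest span group, 5 of the 7 genes that fall in it were listed, and with nub and pdm2 the count was 5 of 9. Of the shorter genes CG4328, CG32105 and vvl, the first 2 were in the table.

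**Figure D1:**
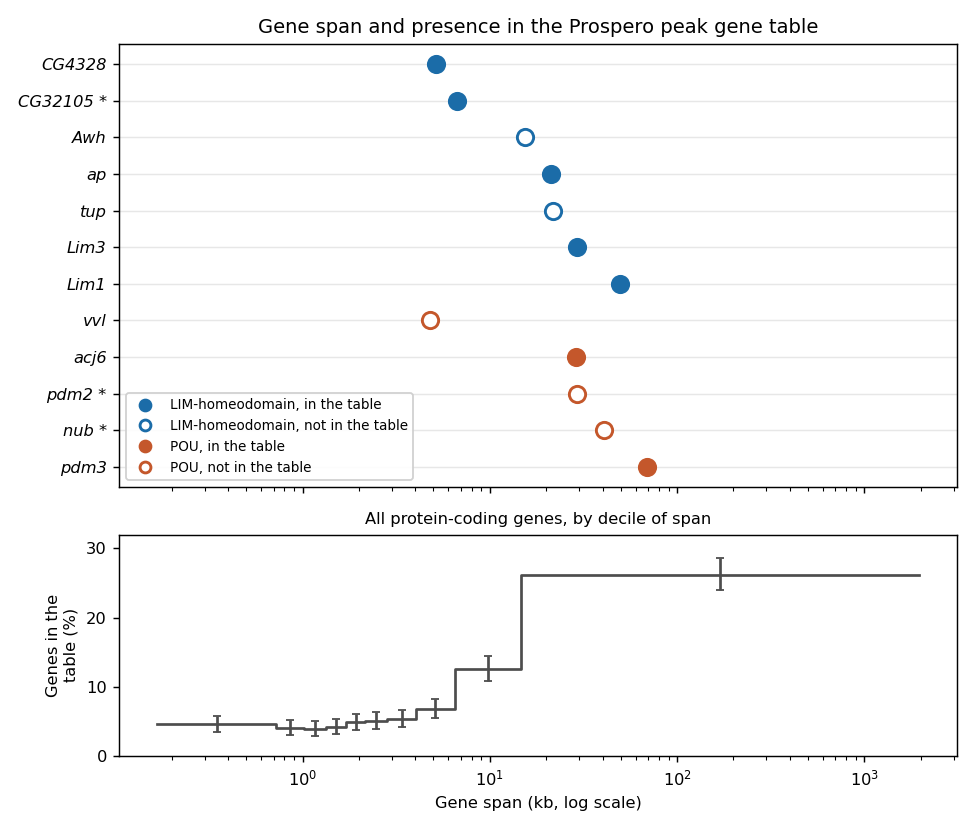
Upper panel, genomic span in kb (log scale) of each LIM-homeodomain gene (blue) and POU gene (orange), filled where the gene is in the authors' deposited table and open where it is not; an asterisk marks family genes outside the 9. Lower panel, percentage of all protein-coding genes in the table by decile of span, with exact 95% intervals. Filled and open symbols occur side by side at about the same span, as for ap and tup, and CG4328 and vvl.

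The genes lie on 4 arms. Both genes on X (Lim1 and acj6) and both on 2R (ap and pdm3) were in the table. On 2L, Lim3 was listed while tup, nub and pdm2 were not. On 3L, CG4328 and CG32105 were listed while Awh and vvl were not. The shares of all protein-coding genes ran from 6.29% on 2L to 9.09% on 3L among these arms, with 7.46% on X and 8.28% on 2R.

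The neighbours of each gene were examined next, because a rule that assigns a peak to several nearby genes would list them together. Neighbours were taken by order along the arm, counting every annotated gene that does not overlap the gene itself. Of the 9 genes, 5 had a gene in the table as the nearest neighbour on at least 1 side, against 13.6% of all protein-coding genes. With protein-coding neighbours only, the count was 3 of 9, against 14.3%. The first background differed with the state of the gene, at 64.6% for listed protein-coding genes and 9.34% for the others. Among the 6 listed genes, the 3 with a listed nearest neighbour were Lim1, CG4328 and acj6. Among the 3 genes not in the table, tup and vvl had one.

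In 2 of the listed genes the table held nothing in the immediate surroundings. None of the 5 nearest genes on either side of ap was listed, and no annotated gene overlaps it; its nearest neighbour on the left is vlc. pdm3 stood alone in the same way, with none of 10 neighbours and none of the 10 protein-coding genes that overlap its span in the table. These overlapping genes are CG11635, hubl, spaw, whip, cola, swif, boly, CG18449, CG2127 and CG8701. The entries for ap and pdm3 are therefore the only ones in their neighbourhoods as counted here. Listed protein-coding genes had on average 2.32 listed genes among their 10 nearest, and the others 0.671.

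Lim3 and acj6 were listed with 1 or 2 close genes. The genes CG17344 and CG43731 overlap the span of Lim3, and both were in the table, while none of the 10 nearest genes outside that span was, CG10700 and lncRNA:CR44905 being the closest. Those 10 include, at the fourth place on the right, Ddc, the decarboxylase gene of dopamine and serotonin synthesis. For acj6, the neighbour on the right, CG9164, was listed, and the neighbour on the left, Prp5, and the overlapping phosphatase gene Pp1-13C were not. For Lim1, the long non-coding RNA gene lncRNA:CR43297 on the left was listed and lncRNA:CR45537 on the right was not, and 3 of its 10 nearest genes were listed in all.

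CG4328 and CG32105 had more listed genes around them than the other genes of both families, with 5 of the 10 nearest for each. They share one neighbourhood, so these counts overlap. lncRNA:CR45658, lncRNA:CR44550 and lncRNA:CR44551 are in both, and each gene of the pair counts for the other. The long non-coding RNA genes between CG4328 and the next protein-coding gene on either side number 4 (lncRNA:CR45658 and lncRNA:CR46241 on the left, lncRNA:CR44550 and lncRNA:CR44551 on the right), and all 4 were in the table. CG32105 is the fourth gene to its right and was listed too, while the protein-coding gene CG44355 between the pair was not. The other pair of nearby paralogues in these families, nub and pdm2, showed the reverse, with neither gene listed. None of the 4 non-coding genes flanking nub was listed. bun, at the fifth place to the left of nub, was the only listed gene among the 10 nearest to nub. The overlapping genes Ref2 (with nub) and Nepl7 (with pdm2) were not in the table either.

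All 3 of the 9 genes that were not in the table had a listed long non-coding RNA gene in the gap between them and the next protein-coding gene. For vvl these were lncRNA:CR45115 and lncRNA:CR45416, the nearest and second genes on its right, while lncRNA:CR45759 on its left was not listed. For tup it was lncRNA:CR44737, the nearest gene on its right; its left neighbour mRpL13 and the overlapping microRNA gene mir-4946 were not listed. For Awh it was lncRNA:CR45422, the third gene to the right, while its nearest neighbours enc and lncRNA:CR45379 were not listed. lncRNA:CR45416 and lncRNA:CR45422 here, and bun, lncRNA:CR46241 and lncRNA:CR44551 above, were named after their state in the table was seen. Over all protein-coding genes, 2.95% had a listed non-coding gene in a flanking gap. Among protein-coding genes not in the table it was 1.42% of 12864, and 7.59% of the 2411 of these that have any non-coding gene in a flanking gap. tup, Awh and vvl all fall in the widest of 10 groups by distance between the nearest protein-coding genes on either side. Of the 1101 genes not in the table in that group, 612 had any non-coding gene in a flanking gap and 76 had a listed one. Over the whole families, 3 of the 5 genes not in the table had a listed one, and nub and pdm2 did not.

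Counted gene by gene, the gaps around the 9 genes held 22 non-coding genes, of which 9 were in the table. By class, these were 7 of 13 around the 6 LIM-homeodomain genes and 2 of 9 around the 3 POU genes, the latter both beside vvl. Around the 6 listed genes it was 5 of 13, and around tup, Awh and vvl 4 of 9. Taken in the same way over all protein-coding genes, 12.6% of the non-coding genes in flanking gaps were listed, with 40.7% around listed genes and 6.70% around the others. Around genes not in the table of the widest distance group above, it was 8.79%. Of the annotated long non-coding RNA genes on the arms, wherever they lie, 16.8% were in the table. The 4 around CG4328 make up most of the LIM count and most of the 5 around listed genes. Around the listed genes ap, acj6 and CG32105 there was no non-coding gene in a flanking gap, and of the 6 flanking pdm3 none was listed. Whether a peak between 2 genes was assigned to one, the other or both was not tested, since the table holds no positions.

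**Figure D2:**
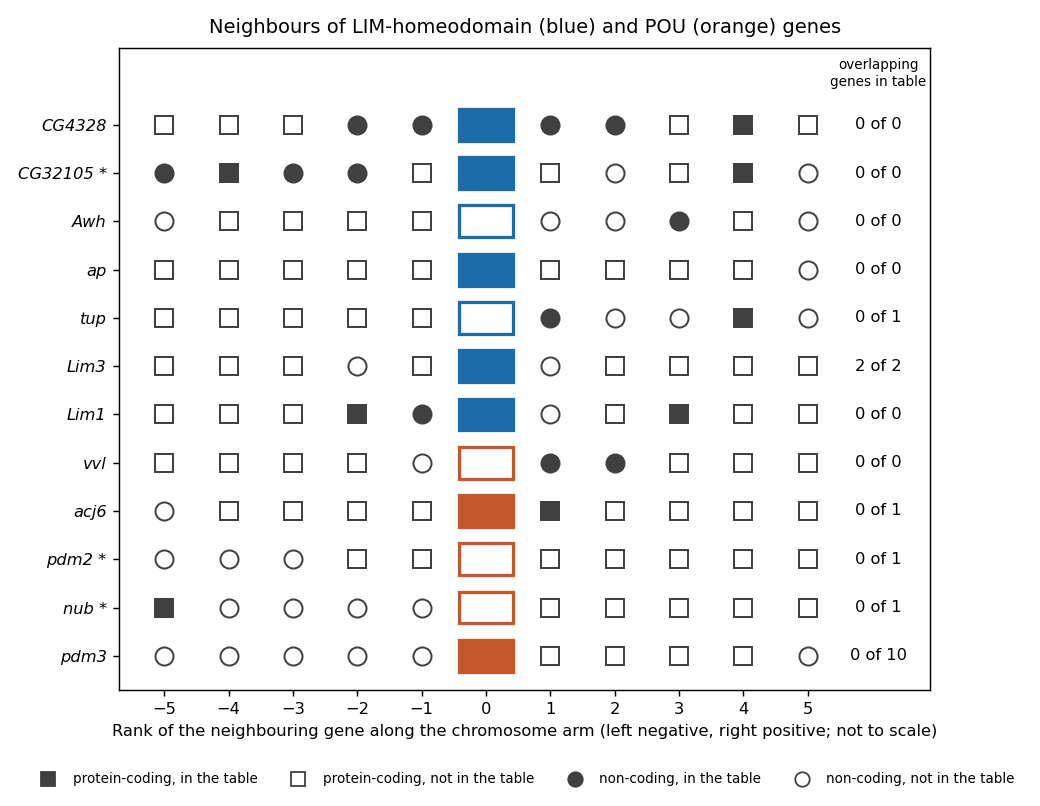
Each row is 1 gene of the LIM-homeodomain (blue) or POU (orange) family, with the box filled where it is in the authors' deposited table and an asterisk for family genes outside the 9; squares are protein-coding and circles non-coding neighbours by rank along the arm, filled where listed. The filled circles beside the open boxes of tup, Awh and vvl are the listed long non-coding RNA genes, and the rows of ap and pdm3 hold no filled neighbour.

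Genes were also ranked by territory, the stretch between the nearest protein-coding genes on either side, a measure added after the table was seen. vvl is short but has the largest territory of these genes (148753 bp) and falls in the widest of the 10 groups, of which 21.1% was listed. At the rates of their territory groups, 1.16 of the 6 LIM-homeodomain genes and 0.581 of the 3 POU genes would be in the table. These values are close to those by span. The median territory was 40102 bp for the 6 listed of the 9 genes and 57099 bp for the 3 others. Over the whole families it was 31126 bp for the 7 listed genes and 57099 bp for the 5 others. Listed genes thus had the smaller median territory but the larger median span.

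The number of RefSeq transcripts was compared as a further property. acj6 has 13 annotated transcripts, Lim3 has 7 and vvl 5, and CG4328 has 1. The median was 4 both in the 6 listed genes and in the 3 others, against 2 for all protein-coding genes and 4 for the longest span group, in which 7 of the 9 genes fall.

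Genes that work with the LIM and POU factors were counted in the same table. Of the LIM cofactors, Ssdp (FBgn0011481), a single-stranded DNA-binding protein of the LIM complex, and Bx (FBgn0265598), a LIM-only protein that competes for the cofactor Chip, were listed. Chi, which encodes Chip, the adaptor that binds LIM domains, was not, which made 2 of 3 beside 0.438 given by their span groups. In the factors that act with Apterous in peptidergic neurons, 3 of 9 genes were listed (33.3%), beside 1.43 given by their span groups. These were kn (FBgn0001319), the Collier factor that acts upstream of ap, the co-activator eya (FBgn0000320) and nab (FBgn0259986). dimm, the bHLH factor of neuropeptide cells, the zinc finger gene sqz, dac, the BMP receptor gene wit and the neuropeptide genes FMRFa and Nplp1 were not in the table.

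Motor neuron factors other than Lim3 and tup were listed for 5 of 6 genes (83.3%), beside 0.931 given by their span groups. They were HGTX (FBgn0040318), the fly Nkx6 gene, eve (FBgn0000606) and grn (FBgn0001138) of dorsal motor neurons, zfh1 (FBgn0004606), and the bHLH gene Oli (FBgn0032651). exex, the fly Hb9 gene, was not listed. tup and exex, both factors of ventral motor neurons, were thus outside the table, while their partners Lim3 and HGTX were in it. Factors of olfactory projection neurons other than acj6 and vvl were listed for 3 of 5 genes (ct, kn and unpg), beside 0.769 given by their span groups, and ems and C15 were not.

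Genes of transmitter identity were listed for 5 of 14 (35.7%), beside 1.77 given by their span groups. ChAT (FBgn0000303) and VAChT (FBgn0270928), which share one locus and serve acetylcholine, were listed together with Gad1 (FBgn0004516), which makes GABA, the vesicular glutamate transporter gene VGlut (FBgn0031424) and the serotonin transporter gene SerT (FBgn0010414). The members not in the table were VGAT, the monoamine genes ple, Ddc, Trh, Vmat, DAT, Tdc2 and Tbh, and Hdc, which makes histamine. Trh is carried as Trhn in the reference. The glial markers gcm, Eaat1 and nrv2 were listed and repo, gcm2, loco, moody and Gs2 were not (3 of 8, 37.5%, beside 0.878 given by their span groups), so the list stood above its span groups as the neuron lists did.

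Other homeobox classes were counted for comparison. Columnar and NK-type genes had 6 of 18 listed (33.3%), among them B-H2, eve, HGTX, slou and unpg. Paired-like genes had 10 of 19 listed (52.6%), among them ey, gsb, hbn, oc and Ptx1. The TALE, cut and zinc finger homeobox genes had 4 of 11 listed (36.4%), which were ct, hth, zfh1 and zfh2. Over these 48 genes, 20 were listed (41.7%), beside 7.47 given by their span groups. The LIM-homeodomain share of 71.4% lay above each of these classes and the POU share of 40% within their range, with span left aside. The span groups gave 2.298 columnar and NK-type, 3.172 paired-like and 1.997 TALE, cut and zinc finger genes, beside 6, 10 and 4 seen. For the full families they gave 1.51 LIM-homeodomain and 1.12 POU genes, beside 5 and 2 seen. Relative to these values, the LIM-homeodomain count stood close to the paired-like one, and the POU count below each class. These differences rest on families of 7 and 5 genes and were not tested. HGTX, eve, exex, zfh1, unpg, ct, kn, C15, ems and repo stand in 2 of the lists and count in each.

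**Figure D3:**
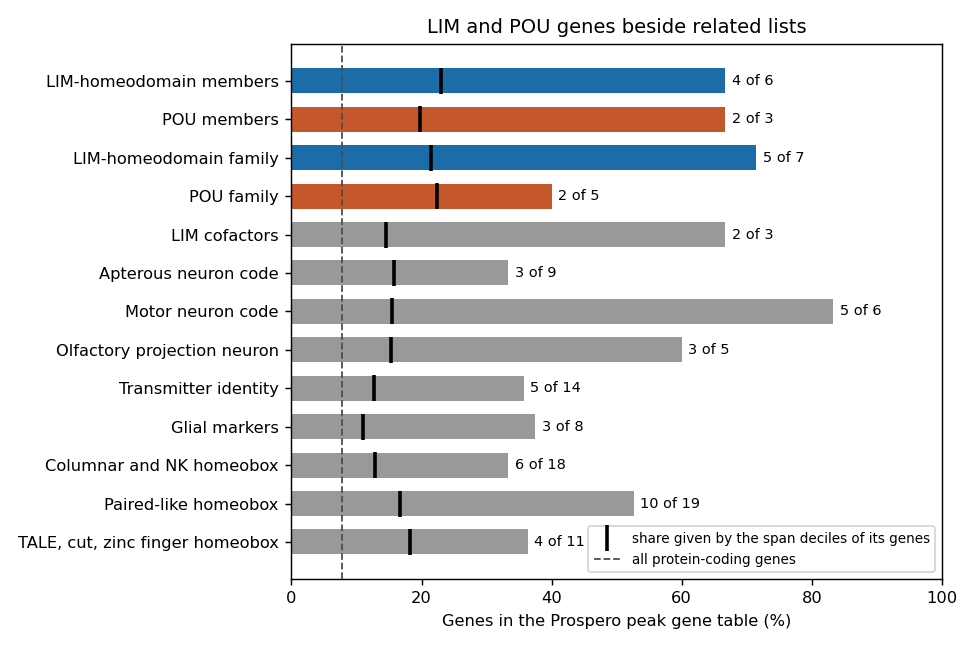
Bars give the percentage of each gene list found in the authors' deposited table, with the count beside each bar; black ticks give the percentage that the span deciles of its genes would give, and the dashed line is the 7.76% of all protein-coding genes. The 9 genes stand at 66.7% in both classes, and the full families at 71.4% (LIM-homeodomain) and 40% (POU).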

How the data were processed

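The authors deposited 1 table of 3 text columns (gene name, FlyBase identifier, symbol) with 1584 entries, of which 1512 carry gene and 72 transcript identifiers, per the file headers. It has no numeric column. The aligner, peak caller, threshold, build and rule for assigning peaks to genes are named in none of the sources used here, and such a rule can list neighbours together. The table may lack some entries, so a gene not in it is one not among those analysed. No separate HP1a or ΔN7 profile was used here.

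Genes were looked up by exact, case-sensitive symbol. For the background, 1507 gene entries were matched to the RefSeq table of Release 6 plus ISO1 MT (1457 by current symbol, 50 by an older name), giving 1504 genes. Where an older name belonged to several genes, those differing from it only in letter case were dropped. Span, territory and gene order come from that table, and no coordinates are printed. Counts are descriptions without a test across genes. The members and lists were chosen with earlier results of these data known. All genes of the families and of the neuron type lists are named, up to 5 listed genes of each other homeobox class in alphabetical order, and neighbours from those that overlap or lie nearest, with exceptions stated. Matching was run on simulated tables that held only current symbols of the same annotation, so matching by older names was not tested. Figures were drawn with matplotlib 3.10.9 and tables handled with pandas 2.3.3 under Python 3.11.15, and intervals came from scipy 1.17.1.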

Additional observations from a re-analysis of the deposited data

How the results depend on the processing

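Searching the symbol column alone, the gene name column alone, gene identifiers alone, or older symbols as well left the counts of the 13 gene lists within 1.5 times. The symbol column alone gave 4 of 7 in the whole LIM-homeodomain family in place of 5, since CG32105 carries the symbol Lmx1a there. No other count changed in these settings. Leaving out genes with a listed nearest or overlapping gene left, in the table, 1 of 2 LIM-homeodomain members (ap) and 1 of 1 POU members (pdm3). It left 2 of 3 in the whole LIM-homeodomain family, 1 of 3 in the whole POU family and 0 of 1 LIM cofactors. Of the neuron and glial lists, it left 1 of 5 Apterous neuron factors, 2 of 3 motor neuron factors, 2 of 4 olfactory projection neuron factors, 2 of 11 transmitter genes and 2 of 5 glial markers. Among other homeobox genes, it left 2 of 12 columnar and NK, 3 of 8 paired-like and 1 of 7 TALE, cut and zinc finger genes. This setting removes listed genes more often than others, since 64.6% of listed protein-coding genes and 9.34% of the others have a listed nearest neighbour. The background was 8.45% over all annotated genes and 26.2% in the longest of 10 span groups of protein-coding genes. With protein-coding neighbours only, 3 of the 9 genes had a listed nearest neighbour in place of 5 (backgrounds 14.3% and 13.6%). Homeodomain identity, promoter words and a background of homeodomain proteins, planned as further descriptions, were not run, since no protein or promoter sequences were used here. No paired analysis was possible because the table holds no values per replicate. Depth and its limits are unknown.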
